A study of Homo sapiens with 30 samples.

Results

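The 39 HOX genes were examined in all 30 libraries of a poly(A) RNA-seq study of RNA polymerase II. They were chosen by symbol alone (HOXA, HOXB, HOXC or HOXD followed by a number), as 39 of the 61578 genes counted: 11 of cluster A, 10 of B, 9 of C and 9 of D. RPB1, encoded by POLR2A, is the catalytic subunit of RNA polymerase II, and its tail repeats a heptad whose residues are phosphorylated as genes are transcribed. All libraries were labelled as A549, a human lung adenocarcinoma line, and fell into 15 groups of 2. The Mock group was untreated with genotype WT. The Degron line carried an RPB1 that dTAGV-1 degrades, and 6 other lines carried that degron together with an inducible RPB1 complement, called WT, Y1F, S2A, T4V, S5A or S7A after the heptad residue replaced. Each of the 7 lines was sampled untreated and treated. Treatment was 2 µg/mL doxycycline for 24 h followed by 100 nM dTAGV-1 for 12 h, or 100 nM dTAGV-1 for 12 h alone in the Degron line, so the treated Degron and WT lines also differed in doxycycline. The study asked how expression changed when each complement took the place of the degraded protein. The labels do not say whether the libraries of a group came from separate cultures or whether a line is 1 clone, so p-values measure only the spread between these libraries.

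HOX genes encode homeodomain transcription factors that give cells their position along the body axis. Within a cluster the genes lie in order of paralog number: low numbers act towards the head and are switched on first, and high numbers act towards the tail and in the limbs and genitalia. Polycomb complexes keep the clusters silent where they are not used, Trithorax and MLL complexes keep them active, retinoic acid induces their low-numbered end, and PBX, MEIS and PKNOX proteins bind DNA together with HOX proteins. Adult and cancer cells keep HOX patterns that reflect their tissue of origin.

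In GRCh38 coordinates of GENCODE release 29, cluster A lies on the minus strand of chromosome 7, and cluster B spans chr17:48528526-48729178 on the minus strand. Cluster C spans chr12:53938765-54056030 and cluster D chr2:176092891-176190907, both on the plus strand. Promoter stretches of 4 members are shown as examples of 2 patterns: HOXD13, HOXA9 and HOXD11 were near 0 in Mock and well above it in every other group, and HOXB1 was near 0 everywhere. Each is the 250 bases before the RefSeq start (GRCh38.p14), 5′ to 3′ on the gene's strand, with 3 motifs in capitals on either strand: TATAAA (the core of the TATA box), CCAAT (the box bound by NF-Y) and TAATTA (a core bound by homeodomains). They lie at chr2:176092471-176092720 (plus strand) for HOXD13, chr7:27165538-27165787 (minus) for HOXA9, chr2:176107030-176107279 (plus) for HOXD11 and chr17:48531012-48531261 (minus) for HOXB1.
HOXD13: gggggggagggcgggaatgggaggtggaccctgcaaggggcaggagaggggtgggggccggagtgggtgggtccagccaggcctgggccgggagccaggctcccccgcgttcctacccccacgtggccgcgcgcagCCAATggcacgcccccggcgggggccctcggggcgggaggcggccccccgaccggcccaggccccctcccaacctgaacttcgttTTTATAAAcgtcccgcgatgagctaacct
HOXA9: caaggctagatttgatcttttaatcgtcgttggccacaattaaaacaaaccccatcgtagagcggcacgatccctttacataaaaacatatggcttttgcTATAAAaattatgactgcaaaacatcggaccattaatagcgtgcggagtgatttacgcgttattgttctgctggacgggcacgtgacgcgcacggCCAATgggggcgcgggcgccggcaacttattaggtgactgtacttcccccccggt
HOXD11: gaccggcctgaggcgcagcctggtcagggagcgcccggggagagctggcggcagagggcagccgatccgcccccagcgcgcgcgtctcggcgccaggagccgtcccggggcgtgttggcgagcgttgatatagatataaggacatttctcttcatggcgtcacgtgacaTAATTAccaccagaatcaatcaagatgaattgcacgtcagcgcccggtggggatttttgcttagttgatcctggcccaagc
HOXB1: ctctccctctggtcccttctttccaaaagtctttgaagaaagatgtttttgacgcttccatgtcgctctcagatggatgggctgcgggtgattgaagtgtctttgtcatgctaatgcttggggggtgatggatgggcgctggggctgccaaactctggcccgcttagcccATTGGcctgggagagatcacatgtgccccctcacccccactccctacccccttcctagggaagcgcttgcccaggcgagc

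The HOXD13 stretch holds TATAAA 27 bases before the start, overlapping its reverse complement, and CCAAT 114 bases before it. In HOXA9, CCAAT lies 55 and TATAAA 150 bases before the start. The HOXD11 stretch holds TAATTA 81 bases before the start and neither of the other motifs, and HOXB1 holds only ATTGG, the reverse complement of CCAAT, 80 bases before it. CpG dinucleotides numbered 21 in HOXD13, 20 in HOXA9 and 23 in HOXD11, against 7 in HOXB1. Windows not printed did not split this way: HOXD4, at 21.5 TPM over the groups of the lines, had 4. HOXA11, near 0 in Mock as well, had 11. RefSeq windows were at hand for 20 of the 39 HOX genes, 26 distinct windows in all. CCAAT was in 17 of these 26 windows, TATAAA in 5 and TAATTA in 2, and over all 35116 windows of this length the shares were 32.0%, 10.7% and 4.35%. The median number of CpG dinucleotides was 19 in the HOX windows and 11 in all, while the median GC content was 58.8% and 58.0%. HOXC4 and HOXC5 share 1 window, the only one of cluster C, HOXB1 has the only one of cluster B, and HOXA3 has several. A match is a description of letters and not of a bound site.

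Library totals ran from 10866089 to 17912802 counts. The labelled cell type was checked against marker genes first. The summed level of 22 A549 and lung adenocarcinoma markers was 39490 to 39556 CPM (counts on a common scale, per TMM-adjusted library total) in the 2 Mock libraries and 151 to 358 in the 28 others. Of the 22 markers, 17 were higher in both Mock libraries than in every other library. NKX2-1, also on this list, was lower in both, at 0.308 and 0 CPM in Mock and 1.18 to 10.7 elsewhere. SFTPB, SFTPC, SFTPA1 and NAPSA overlapped between Mock and the other libraries. AKR1B10 stood at 5535 and 5510 CPM in Mock and at 0 to 0.0833 elsewhere, and CEACAM6 was at 0 in all 28 other libraries. CDKN2A, CDKN2B and MTAP, which are deleted in A549, summed to 0.411 to 0.480 CPM in Mock and 153 to 258 elsewhere. IRS4, typical of the embryonic kidney line HEK293, stood at 0.103 and 0.0960 CPM in Mock and at 50.2 to 1493 in the others, and its list of 12 kidney and neuronal genes summed to 82.6 to 94.4 against 218 to 1995. Of the 12, 7 were lower and 2 higher in both Mock libraries than in every other library: the neuronal filament gene INA stood at 58.2 and 53.1 CPM in Mock and 0.0811 to 7.99 elsewhere, and PAX8 at 3.18 and 1.73 against 0 to 0.133. So the 28 libraries of the 7 lines were far below Mock in most markers of their label, and Mock differs from them in marker genes as well as in the degron. In every comparison with Mock the degron and these differences cannot be told apart. No treated with untreated comparison contrasts Mock itself, but the Mock libraries share the fit from which the filter, scaling and spread come.

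In Mock POLR2A itself was at 440 ± 47.4 CPM (SD, n = 2). With treatment its counts, which cannot separate endogenous from introduced copies, rose in the WT, Y1F, S2A, S5A and S7A lines by 0.93 to 1.45 on the log2 scale. They were not called in Degron (0.50, adjusted p = 0.11) or T4V (0.53, adjusted p = 0.12). A call here and below is an adjusted p under 0.05 in the quasi-likelihood test of edgeR, adjusted over 19982 genes by the Benjamini-Hochberg method.

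HOX transcripts were scarce in Mock and abundant in the other lines. They made up 0.0214% and 0.0217% of the counts of the 2 Mock libraries, 0.112% to 0.189% of those of untreated lines and 0.0531% to 0.143% of those of treated lines. At a threshold of 1 TPM (counts per transcript length, scaled to a near-equal total in each library; the authors' deposited values) in both libraries, 25 HOX genes were detected in Mock and 35 to 38 in each other group. In cluster D 3 of 9 genes were detected in Mock and 7 to 9 elsewhere, and in cluster A 7 of 11 and 11. In summed level, cluster D stood at 8.66 ± 0.833 CPM in Mock and between 227 and 331 in the untreated lines. Cluster A stood at 45.0 ± 2.91 in Mock against 344 to 603, cluster B at 146 ± 5.60 against 359 to 636, and cluster C at 62.6 ± 0.455 against 96.1 to 271 (SD, n = 2).

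**Figure D1:**
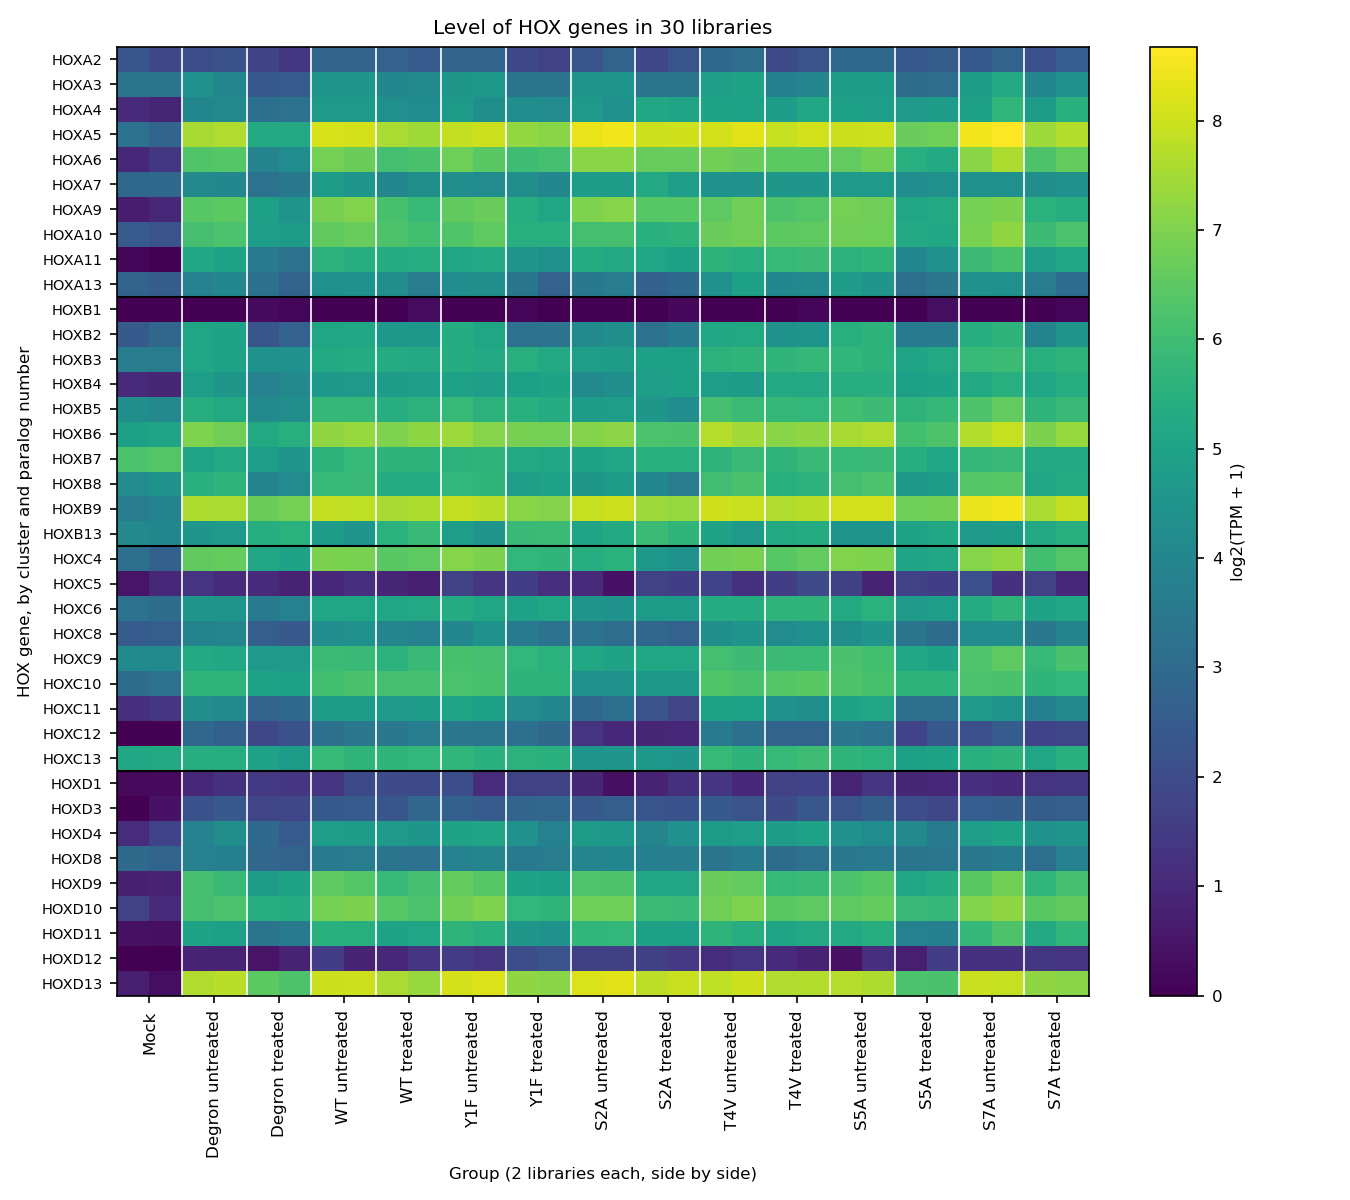
Level of HOX genes (rows, by cluster and paralog number) in 30 libraries (columns, 2 per group), as log2 of deposited TPM plus 1; lighter is higher. Mock forms a dark pair of columns and is darkest in cluster D, while HOXB7, HOXB13 and HOXC13 are bright there as elsewhere; HOXB1 is dark throughout.

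Per transcript length, the highest genes of clusters A, B and D were of middle or high paralog number. As the mean of the deposited TPM over the groups, HOXA5, which acts in lung and neck development, led cluster A at 211, ahead of HOXA6 at 84.8 and HOXA9, a driver of myeloid leukaemia, at 76.0. HOXB9 led cluster B at 194 TPM, before HOXB6 at 128 and HOXB7 at 46.0; over the 14 groups of the lines alone HOXB5, at 47.6, passed HOXB7, at 43.7. HOXC4, the lowest-numbered gene of its cluster, led cluster C at 78.3 TPM, before HOXC10 at 52.7 and HOXC9 at 49.6. In cluster D the most posterior member led: HOXD13, needed for digits, averaged 186 TPM, before HOXD10 at 82.3 and HOXD9 at 60.2. HOXB1, a hindbrain gene, was the only member not tested. It had 0 counts in all untreated libraries and at most 2 counts in any treated one, and its highest group mean was 0.139 TPM. The limit that 0 counts in a group allows (3 counts over its 2 libraries) was 0.149 CPM in Mock; floors and intervals cover counting error only.

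All 7 untreated lines were then set against Mock; these 7 comparisons share the Mock libraries, so their values stand side by side and do not support each other. HOX genes were called higher in 33 of 38 tested in Degron, where 33.5% of all genes were called higher, in 32 in WT (33.8%), 33 in Y1F (33.2%) and 30 in S2A (34.6%). The count was 34 in T4V (33.9%), 33 in S5A (34%) and 33 in S7A (33.6%). For the mean of the 7 lines it was 34 of 38, with 36.5% of all genes called higher. With the genes at 0 to 2 counts in Mock at their bounds or count ratios, the median HOX difference was 1.84 (S2A) to 2.89 (WT) on the log2 scale, and the median of all genes was 0.07 to 0.17. Without any 1 library these counts stayed between 29 and 34. Mitochondrial scaling raised both counts: 34 (Degron, S2A) to 37 (Y1F, T4V, S5A, S7A) HOX genes were then higher, against 49.5% (Degron) to 60.6% (S5A) of all genes. Fewer cells of a type and less RNA per cell cannot be told apart in bulk libraries such as these.

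HOXD13 showed the pattern most plainly. Its level was 0.514 and 0.192 CPM in Mock, from 7 counts in all, and 120 and 127 in untreated Degron cells. It was 147 and 150 in WT, 164 and 173 in Y1F, 172 and 181 in S2A, 138 and 150 in T4V, 122 and 114 in S5A, and 148 and 137 in S7A. Every library of a line lay above both Mock libraries, and the log2 difference of the 7-line mean was 8.66 ± 0.18 (SE, adjusted p = 4.2e-21). HOXA9 stood at 0.616 and 0.960 CPM in Mock and 63.9 to 99.3 in the untreated lines (log2 difference 6.65 ± 0.18, adjusted p = 6.7e-19). HOXD11, a gene of the forearm and kidney, stood at 0.205 and 0.192 CPM in Mock and 14.5 to 37.8 in the untreated lines (6.80 ± 0.28, adjusted p = 1.1e-15). The promoters of these 3 genes are printed above. Their neighbours in the posterior D cluster behaved alike: HOXD9 differed by 6.39 ± 0.26 and HOXD10 by 5.65 ± 0.16.

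HOXA11, also a forearm gene, had 1 count in Mock and 544 to 1249 counts per untreated line. The ratio to Mock was 436 in Degron (95% counting interval 77.9 to 17238.5) and 855 in S7A (153 to 33806). HOXC12 and HOXD12 had 0 counts in Mock. HOXC12 was at least 6.59-fold higher in S2A and at least 52.3-fold higher in Y1F, the extremes over the 7 lines. HOXD12 was scarcer, at least 3.14-fold higher in S5A and at least 8.86-fold higher in S2A. HOXD1 had 2 counts in Mock; its ratio ran from 2.73 in S2A (0.544 to 26.3), where the interval includes 1, to 10.3 in Y1F (2.55 to 89.8).

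By position, the posterior genes of paralog numbers 9 to 13 were called higher in 14 or 15 of 16 per line and those of numbers 4 to 8 in 10 to 13 of 15. Those of numbers 1 to 3 were called higher in 5 to 7 of 7 tested. At the anterior end HOXB2 differed by 2.28 ± 0.18 for the 7-line mean and HOXA3 by 1.01 ± 0.14. HOXA2, which patterns the hindbrain and the face, was called in 2 lines (−0.39 to 0.71 over the lines) and under mitochondrial scaling in all but Degron (0.19 to 1.46).

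A few members went against the rest. HOXB7 was the only HOX gene called lower than Mock in all 7 lines: it stood at 36.1 and 38.8 CPM in Mock and 11.5 to 20.7 in the untreated lines. Its log2 difference ran from −1.66 ± 0.12 (S2A) to −0.86 ± 0.12 (S7A), but scaling by mitochondrial mRNAs removed the call in WT, T4V, S5A and S7A and left a range of −0.998 to −0.0055. Between 29.2% and 31.3% of all genes were called lower in these comparisons: 31.3% in Degron, 29.7% in Y1F, 29.9% in S7A, 29.9% in WT, 29.3% in S5A, 29.3% in T4V and 29.2% in S2A; under mitochondrial scaling the share was 13.5% (S5A) to 18.3% (Degron). For the mean of the 7 lines it was 32.9%. HOXC13, a gene of hair and nail, stood at 26.6 and 28.0 CPM in Mock; only the S2A line was called lower, at 12.4 and 12.6 CPM (−1.13 ± 0.14, adjusted p = 2.5e-07). Under mitochondrial scaling HOXC13 was called higher in the 5 lines other than S2A and Degron (0.63 to 0.88). HOXB13, a gene of the prostate and tail end, stood at 15.4 and 14.3 CPM in Mock and 16.2 to 27.9 in the untreated lines. It was called higher in S2A (0.81 ± 0.17) and T4V (0.49 ± 0.17) and not in the other 5, but mitochondrial scaling called it higher in all 7 (0.79 to 1.50, adjusted p 1.5e-06 to 0.0028). HOXD8 (0.26 to 0.78) was called in 3 lines and HOXC5 (−0.35 to 1.43), at no more than 1.34 CPM in any untreated library, in 1. Mitochondrial scaling called HOXD8 in all 7 (1.01 to 1.47) and HOXC5 in Y1F, T4V, S5A and S7A (0.32 to 2.20 over the lines).

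**Figure D2:**
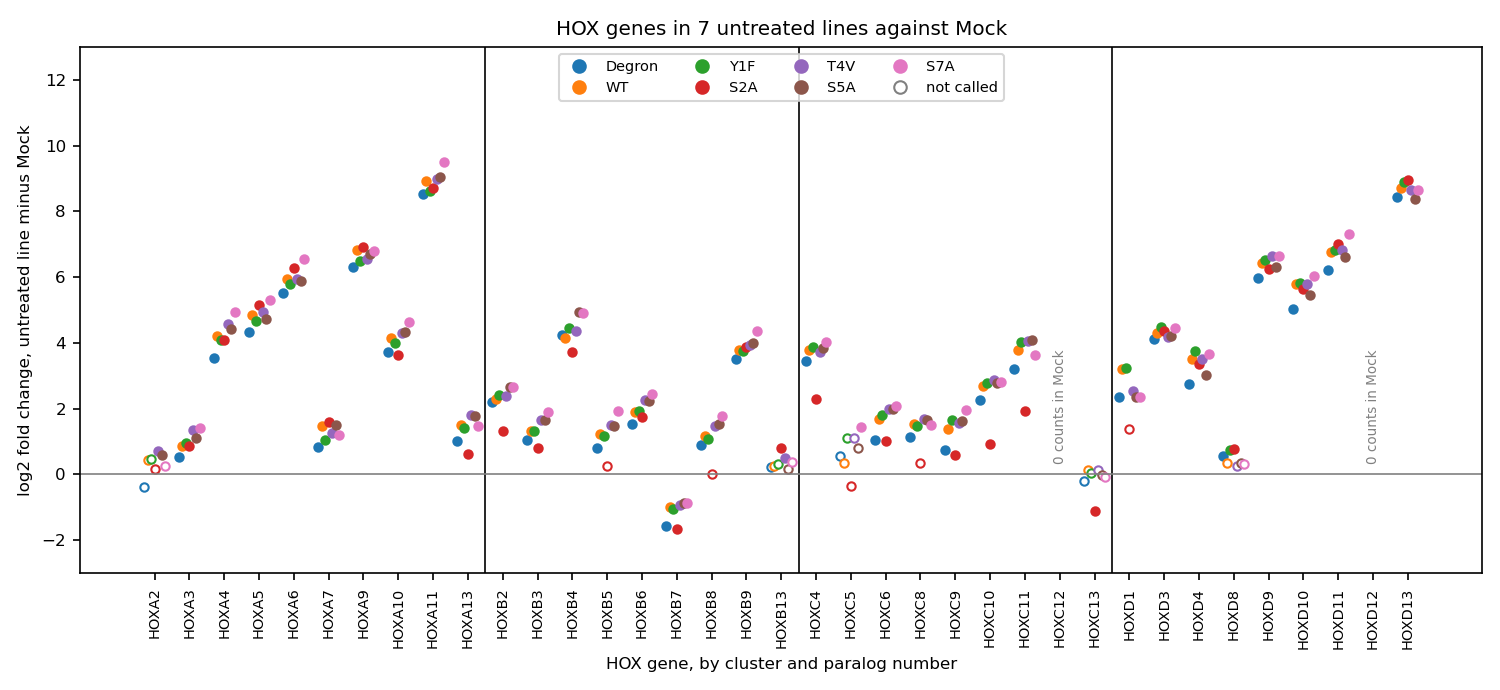
Difference of each untreated line from Mock (log2 fold change, y axis) for tested HOX genes in cluster and paralog order; filled points are called at an adjusted p under 0.05. HOXA9, HOXA11, HOXD9, HOXD11 and HOXD13 lie highest, HOXB7 lies below 0, HOXC12 and HOXD12 are left out because Mock had 0 counts, and HOXA11 and HOXD1 rest on 1 and 2 Mock counts.

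Among the 7 untreated lines, 33 of the 38 tested HOX genes were called for any difference, against 38.9% of all genes, and the count stayed at 32 to 34 without any 1 library. The exceptions were HOXC5, HOXD1, HOXD3, HOXD8 and HOXD12. For 28 of 36 genes with Mock counts, the ratio of the highest to the lowest line mean was smaller than the gap of the 7-line mean to Mock under TMM. It was 1.50 for HOXD13, 1.51 for HOXA9 and 2.00 for HOXA5. For the other 8 (HOXA2, HOXB5, HOXB8, HOXB13, HOXC5, HOXC8, HOXC13 and HOXD8) the lines differed among themselves by as much or more. The S7A line had the highest mean for 19 of the genes, and S2A the lowest for 19.

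Cluster C set S2A apart. Its 9 genes summed to 96.1 ± 0.159 CPM in untreated S2A cells against 177 ± 5.53 in Degron and 241 to 271 in the other 5 lines (SD, n = 2). HOXC10, a gene of the lumbar region, stood at 11.3 and 11.7 CPM in S2A against 28.2 to 46.2 in the other lines. HOXC11 stood at 5.07 and 6.26 CPM against 12.6 to 26.3, and HOXC4 at 27.8 and 30.6 against 63.7 to 101. For these 3 genes no S2A library reached any other untreated line. HOXC12 had the widest ratio, 7.89 from S2A to Y1F, and HOXC11 and HOXC10 followed at 4.47 and 3.81. In cluster B, HOXB8 (3.40) and HOXB5 (3.20) were likewise lowest in S2A. Cluster D did not follow: untreated S2A cells had 325 ± 3.79 CPM, within the 227 to 331 of all lines, and the highest HOXD13. These are cells before any treatment, and each line differs from the next by its complement and its derivation, which cannot be told apart.

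**Figure D3:**
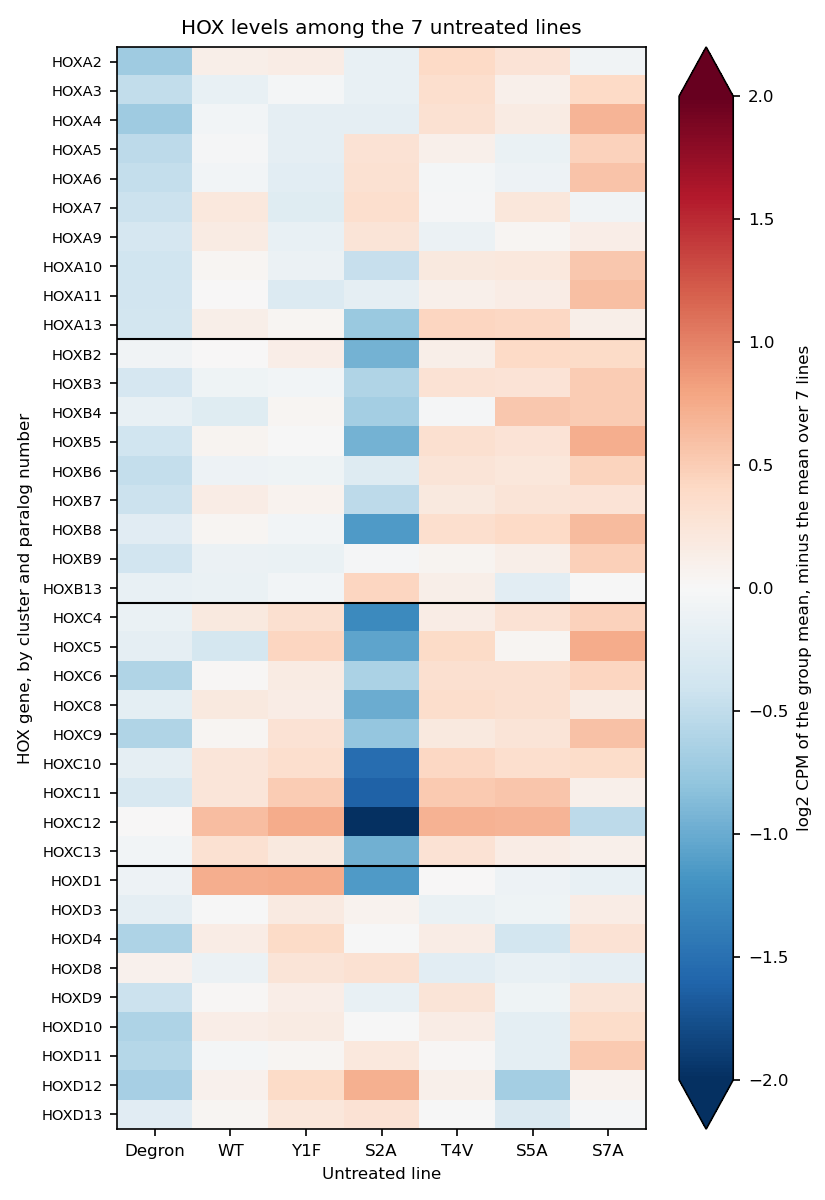
Level of tested HOX genes in the 7 untreated lines, as log2 CPM of the group mean minus the mean over the lines; red is higher and blue lower. The S2A column is blue through cluster C and most of cluster B, with HOXC12 the lowest, while S7A is red in most rows.

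Treatment lowered HOX transcripts in most lines. The HOX sum went from 1108 ± 25.8 to 519.9 ± 11.2 CPM in Degron and from 1531 ± 8.42 to 696 ± 12.5 in S5A (SD, n = 2). Under TMM scaling, which sets the median of all genes near 0, HOX genes fell in 32 of 38 tested in Degron (23% of all genes fell and 20.7% rose) and in 28 in S5A (26.4% and 23.7%). The count was 25 in S7A (17.3% and 17.6%), 24 in Y1F (22.8% and 21.4%), 16 in S2A (19.3% and 16.1%), 10 in WT (2.24% and 2.86%) and 8 in T4V (15.8% and 13%). The median HOX change was −0.96 in Degron, −1.03 in S5A, −0.64 in Y1F and −0.57 in S7A on the log2 scale. It was −0.30 in S2A, −0.30 in WT and −0.19 in T4V. The median of all genes was −0.03 to 0.00. Other scalings moved the median of all genes by −0.19 in WT to −0.92 in S5A (the authors' factors) and by −0.17 in WT to −0.70 in S5A (mitochondrial mRNAs). Both shifted all genes of a line downward together, so fallen members kept their sign by construction and the falls were not tested by this. By the authors' factors 35 HOX genes fell in S7A (61.4% of all genes), 34 in S5A (62.5%), 34 in Degron (60.8%), 33 in Y1F (60%), 24 in S2A (43.9%), 21 in T4V (33.7%) and 7 in WT (1.9%). Under mitochondrial scaling 34 fell in S5A (56.8%), 34 in Degron (42.5%), 29 in Y1F (36.7%), 28 in S7A (38.3%), 25 in T4V (48.3%), 24 in S2A (46.1%) and 14 in WT (9.48%). A scaling shifts HOX genes and all other genes alike, so the HOX median minus the all-gene median was bound to move little. It went from −0.96 to −0.98 in Degron.

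Marker lists were also set side by side in untreated and treated libraries, pooled over the 7 lines, and only the immune ranges did not overlap. The 8 immune markers summed to 1.93 to 5.31 CPM in untreated and 7.15 to 28.2 in treated libraries of the lines. The 12 kidney and neuronal genes ranged lower after treatment, with some overlap: 1092 to 1995 in untreated and 218 to 1236 in treated libraries. The 6 endothelial markers summed to 1.74 to 3.86 and 2.74 to 12.1, the 8 fibroblast markers to 28.7 to 67.0 and 23.1 to 72.2, and the 22 A549 markers to 151 to 277 and 152 to 358. Their part in the HOX results was not tested.

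**Figure D4:**
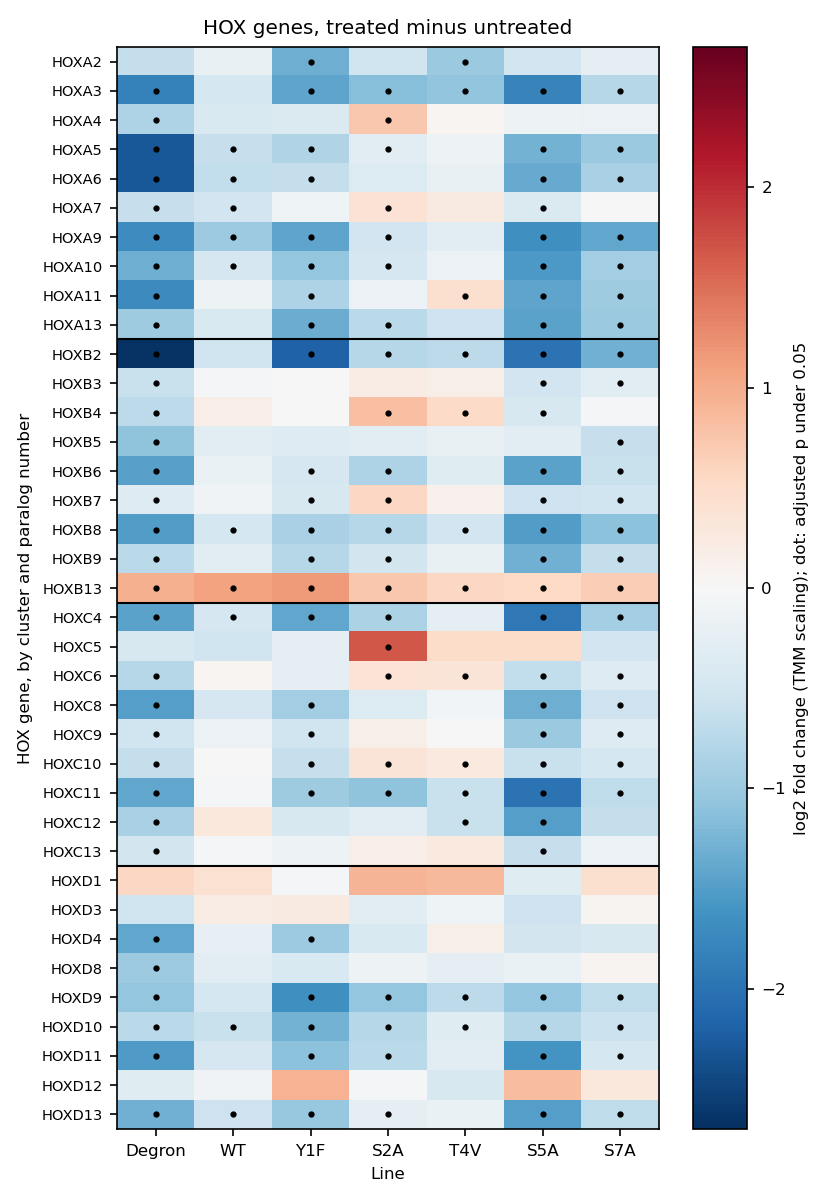
Treated minus untreated log2 fold change of tested HOX genes (rows) in 7 lines (columns), TMM scaling; a dot marks an adjusted p under 0.05. Degron and S5A are blue in most rows and WT and T4V are pale; HOXB13 is red in all 7 columns, but its sign turns in S5A and S7A under the authors' factors and in T4V and S5A under mitochondrial scaling.

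In the Degron line, where no complement replaced RPB1, all but 6 of the tested members fell. HOXB2, which specifies a segment of the hindbrain, fell most, by 2.66 ± 0.20 (adjusted p = 9.8e-10), with 20.5 and 18.2 CPM untreated and 2.47 and 3.61 treated. HOXA5 fell by 2.29 ± 0.11, from 79.2 and 82.1 CPM to 16.2 and 16.7. In both, every treated library lay far under every untreated one. HOXA6 fell by 2.28 ± 0.18, HOXA3 by 1.83 ± 0.18, HOXA11 by 1.71 ± 0.16 and HOXA9 by 1.70 ± 0.12, so that 5 of the 6 largest falls were in cluster A. HOXD11, HOXB8, HOXC8 and HOXB6 followed at −1.52 to −1.46. Cluster A had 10 of 11 members fallen, B 8 of 9, C 8 of 9 and D 6 of 9. HOXA2, HOXC5, HOXD1, HOXD3 and HOXD12, all at low levels, were not called.

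The S5A line came next. HOXB2 fell by 2.00 ± 0.19, HOXC11 fell by 1.99 ± 0.17 (24.3 and 26.3 CPM to 6.48 and 6.21) and HOXC4 by 1.92 ± 0.13 (86.3 and 85.6 CPM to 22.3 and 22.9). None of these groups overlapped. HOXA3, HOXA9, HOXD11 and HOXA10 fell by 1.80 to 1.55, and HOXB8, HOXD13 and HOXC12 by 1.52 to 1.48. Members fallen numbered 9 of 11 in cluster A, 7 of 9 in B, 8 of 9 in C and 4 of 9 in D. HOXA4, at 12.1 and 11.7 CPM untreated and 10.6 and 11.03 treated, was among those not called.

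In the Y1F line HOXB2 again fell most, by 2.17 ± 0.19 (24.6 and 20.4 CPM to 4.72 and 5.32). HOXD9 followed at −1.65 ± 0.17, then HOXA9, HOXA3 and HOXC4 at −1.43 to −1.40. HOXD10 fell by 1.28 ± 0.11, from 69.3 and 77.1 CPM to 29.6 and 30.8. Here 9 of 11 genes of cluster A fell and 5 of 9 in each other cluster. In the S7A line HOXA9 fell most, by 1.41 ± 0.12 (88.4 and 89.5 CPM to 34.6 and 32.2), before HOXB2 at −1.29 ± 0.18 and HOXB8 at −1.12 ± 0.14. HOXA13, the limb and genital partner of HOXD13, HOXA5 and HOXA11 fell by 1.00 to 0.97. Cluster A had 8 of 11 fallen, B 7 of 9, C 6 of 9 and D 4 of 9.

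With the WT complement the changes were smaller. HOXA9 fell by 0.99 ± 0.12 (adjusted p = 2.4e-05), from 86.7 and 94.9 CPM to 49.7 and 42.0. HOXA5 (−0.62 ± 0.11) and HOXD13 (−0.56 ± 0.10) fell as well. These 3 calls held without any 1 library of the line. The other 7 (−0.66 to −0.36), HOXA6, HOXA7, HOXA10, HOXB8, HOXC4 and HOXD10 among them, did not: the count fell from 10 to 4 without untreated WT library 1, 3 without untreated library 2, 5 without treated library 1 and 5 without treated library 2. Of the 10 genes, 6 were in cluster A, and HOXB2 was not called (−0.54 ± 0.17, adjusted p = 0.074).

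The S2A and T4V lines had members called in both directions, but the upward calls depend on the scaling. With the size factors of DESeq2, which also keep the median of all genes near 0, 9 HOX genes rose in S2A and 5 in T4V. Over all 19982 genes 3703 and 2913 rose there. Under the authors' factors and under mitochondrial scaling 0 HOX genes rose in either line. In S2A, HOXA3 fell by 1.15 ± 0.17, HOXC11 by 1.09 ± 0.21, HOXD9 by 1.05 ± 0.17 and HOXC4 by 0.85 ± 0.13. Under TMM 8 of 38 tested genes rose there (HOXC5, HOXB4, HOXA4, HOXB13, HOXB7, HOXA7, HOXC6 and HOXC10, 0.35 to 1.68), where 16.1% of all genes rose. Of the 8, HOXA7, HOXC6 and HOXC10 turned negative under the authors' factors and under mitochondrial scaling. The largest, HOXC5, went from 0.417 and 0.132 CPM to 0.948 and 0.820 and lost its call without untreated S2A library 2 (adjusted p = 0.25) or either treated library (0.14 and 0.075). The count of 8 fell to 3 without untreated library 2, 3 without treated library 1, 5 without untreated library 1 and 5 without treated library 2. HOXB4 went from 7.92 and 9.22 CPM to 14.5 and 15.5 (0.80 ± 0.15).

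In T4V, HOXA3 fell by 1.07 ± 0.16, HOXA2 by 0.99 ± 0.24, HOXB2 by 0.72 ± 0.17 and HOXD9 by 0.71 ± 0.16. Under TMM 5 of 38 tested genes rose (HOXB13, HOXB4, HOXA11, HOXC6 and HOXC10, 0.26 to 0.55), close to the share of all genes that rose, 13%. All 5 turned negative under mitochondrial scaling. The 5 became 0 without untreated T4V library 2, 0 without treated library 1 and 1 without treated library 2. The 8 fallen became 5 without treated library 1 and 5 without treated library 2, with HOXC12, HOXC11, HOXB8 and HOXD10 losing calls without 1 library or another.

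Across lines, which for these contrasts share no libraries, HOXB8 and HOXD10 fell in all 7, and 10 genes fell in 6 (among them HOXA3, HOXA5, HOXA9, HOXA10, HOXB2, HOXC4, HOXC11, HOXD9 and HOXD13). HOXB8, which acts in the spinal cord and in blood cells, went from 26.3 and 28.0 CPM to 8.21 and 10.8 in Degron and from 40.0 and 43.4 to 13.9 and 15.2 in S5A. It went from 50.3 and 48.0 to 20.4 and 25.0 in S7A, and from 31.1 and 29.5 to 15.2 and 17.7 in Y1F. In WT it went from 32.2 and 32.5 to 22.4 and 24.3, in T4V from 38.2 and 41.7 to 27.3 and 28.4, and in S2A from 13.5 and 15.4 to 9.48 and 7.38. In every line both treated libraries lay under both untreated ones. The change ran from −1.52 ± 0.14 (S5A) to −0.47 ± 0.14 (WT, adjusted p = 0.049), and the WT call was lost without any 1 of its 4 libraries (adjusted p 0.15 to 0.27) and the T4V call without treated library 1 (0.054). HOXD10 ran from −1.28 ± 0.11 (Y1F) to −0.32 ± 0.11 (T4V, adjusted p = 0.032). The T4V call of HOXD10 was lost without any 1 of its 4 libraries (adjusted p 0.073 to 0.19), and its WT call without untreated WT library 2 (0.059). HOXB13, HOXC5, HOXD1, HOXD3 and HOXD12 fell in none.

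HOXB13, the last gene of cluster B and set apart from its neighbours by a wide gap, was the only member called higher after treatment in all 7 lines under TMM scaling, though its sign turned in S5A and S7A under the authors' factors and in T4V and S5A under mitochondrial scaling. Its level went from 17.2 and 17.4 CPM to 31.2 and 36.5 in Degron, from 19.0 and 16.2 to 31.9 and 42.2 in WT, and from 20.9 and 16.3 to 38.8 and 44.3 in Y1F. It went from 24.0 and 27.9 to 46.6 and 39.2 in S2A, from 23.7 and 17.8 to 30.5 and 30.6 in T4V, from 16.5 and 16.7 to 23.0 and 25.3 in S5A, and from 19.2 and 19.3 to 27.7 and 33.0 in S7A. Both treated libraries lay above both untreated ones in each line. The change was 1.16 ± 0.16 in Y1F, 1.08 ± 0.16 in WT, 0.97 ± 0.16 in Degron, 0.72 ± 0.16 in S2A, 0.66 ± 0.16 in S7A, 0.55 ± 0.16 in T4V and 0.54 ± 0.16 in S5A. The call was lost in T4V without untreated library 2 (adjusted p = 0.14), treated library 1 (0.058) or treated library 2 (0.065), in S5A without treated library 2 (0.076) and in S7A without treated library 2 (0.051). With the authors' factors it was called in WT alone (0.92, adjusted p = 0.0085); the values were 0.32 in Y1F, 0.22 in S2A, 0.16 in Degron, 0.15 in T4V, −0.17 in S7A and −0.37 in S5A. Under mitochondrial scaling the values were 0.90 in WT, 0.84 in Y1F, 0.54 in Degron, 0.28 in S7A, 0.25 in S2A, −0.0011 in T4V and −0.15 in S5A.

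**Figure D5:**
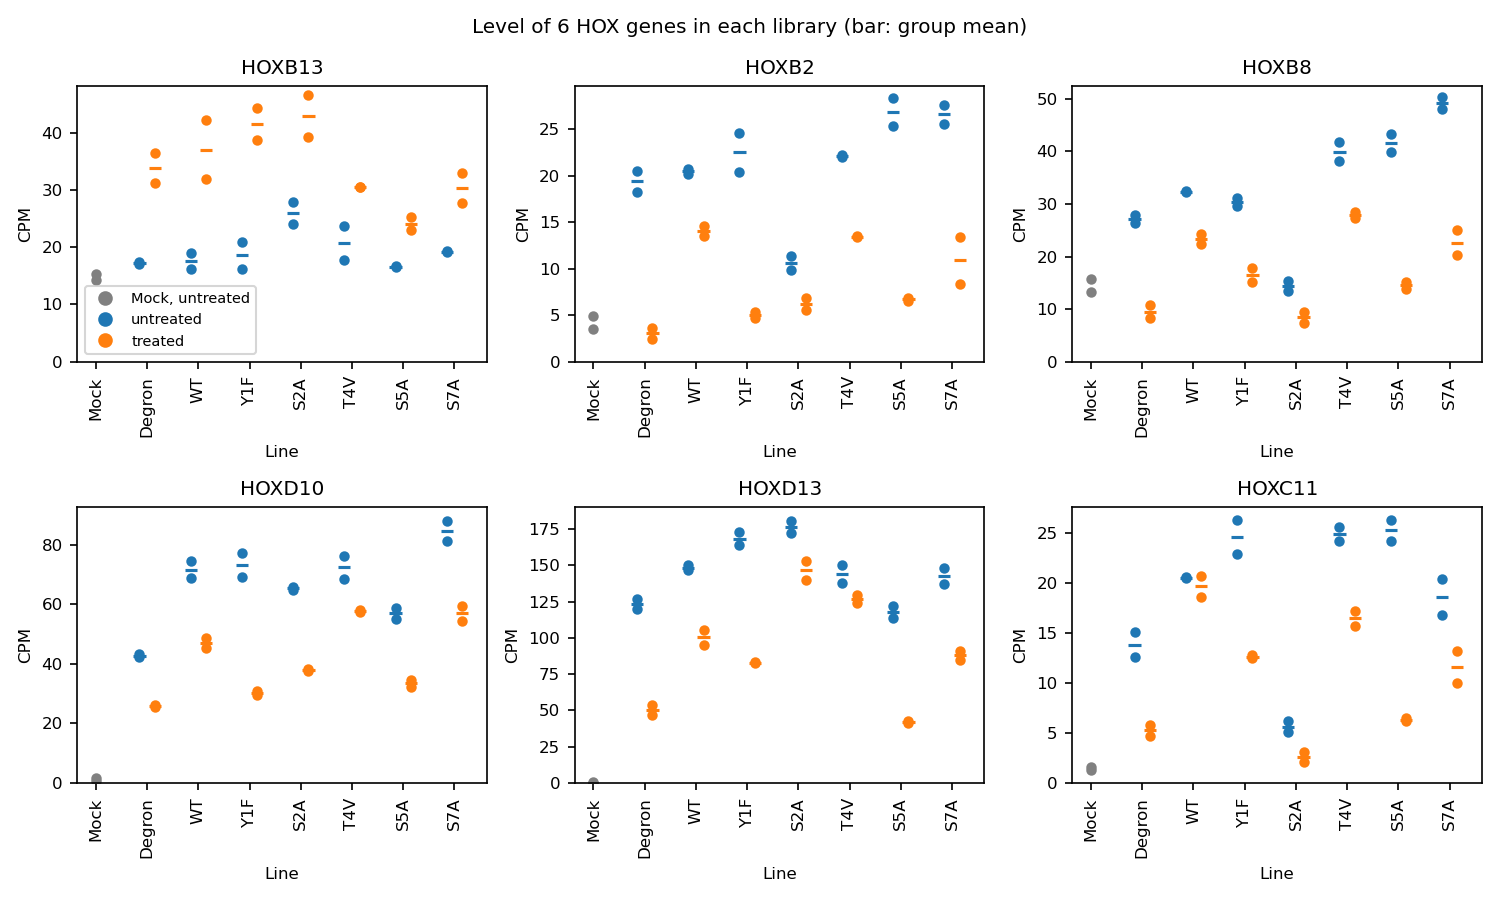
Level (CPM, linear axis from 0) of 6 HOX genes in each library: grey, Mock; blue, untreated; orange, treated; bars, group means of 2 libraries. The treated points lie above the untreated ones in every line for HOXB13 on this TMM scale, although its change is negative in S5A and S7A under the authors' factors, and in T4V and S5A under mitochondrial scaling; they lie below for HOXB2, HOXB8 and HOXD10 in every line, and HOXD10, HOXD13 and HOXC11 are near 0 in Mock.

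The change in each line was next set against the change in the WT line; these 6 tests share the 4 WT libraries. In Degron 22 of 38 HOX genes fell more than in WT (8.52% of all genes did) and in S5A 24 (12.3%). In Y1F the count was 12 (6.85%), in S2A 1 (4.49%), in T4V 0 (2.69%) and in S7A 0 (0.34%). HOX genes changed upward relative to WT numbered 3 in S2A (2.85%), 2 in T4V (1.12%) and 0 in Degron (3.2%), Y1F (3.21%), S5A (5.86%) and S7A (0.35%). In S7A, 15 HOX genes had an unadjusted p under 0.05, DESeq2's Wald test called 1, and the authors' factors gave 26, where 21.5% of all genes were lower. In T4V, 10 had an unadjusted p under 0.05.

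HOXB2 differed most in Degron, by −2.12 ± 0.27, and in Y1F, by −1.63 ± 0.26. HOXA5 and HOXA6 followed in Degron at −1.67 ± 0.15 and −1.62 ± 0.24, and HOXD9 in Y1F at −1.19 ± 0.23. HOXC11 (−1.94 ± 0.22), HOXC12 (−1.77 ± 0.31) and HOXC4 (−1.46 ± 0.17) led in S5A, where HOXC11 and HOXC4 were also among the largest falls. The Y1F count of 12 became 4 without untreated WT library 1, 7 without untreated WT library 2, 6 without treated Y1F library 1, and 7 without untreated Y1F library 1 or 2. The calls of S2A and T4V did not all hold when 1 library or another was left out, which leaves 1 library in its group. The sizes did not hang on 1 library: where the call was lost, HOXA4 in S2A stayed at 0.95 to 1.33 and HOXA7 in T4V at 0.57 to 0.89.

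The authors' deposited table for each line gives its own fold changes, on its own scaling. In those tables, at the authors' adjusted p under 0.05, 33 HOX genes were lower after treatment in Degron (47.1% of all genes with an adjusted p), 33 in Y1F (49.5%) and 34 in S5A (49%). The authors' deposited table had 31 lower in S7A (47.8%), 20 in S2A (39.7%), 20 in T4V (32.8%) and 0 in WT (0.0296%), each of 38. No HOX gene was higher in any of the 7 authors' deposited tables, where the share of all genes higher was 4.04% in S5A, 3.2% in S2A, 2.9% in Y1F, 2.54% in Degron, 2.34% in S7A, 1.47% in T4V and 0.074% in WT. The median HOX change in the authors' deposited table was −1.75 in Degron, −1.91 in S5A, −1.47 in Y1F, −1.39 in S7A, −0.80 in S2A, −0.61 in T4V and −0.48 in WT.

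Genes related to HOX proteins or to the control of HOX clusters were read from lists, under TMM scaling unless another is named. Under TMM 23% of all genes fell and 20.7% rose in Degron, 22.8% and 21.4% in Y1F, and 19.3% and 16.1% in S2A. The shares were 26.4% and 23.7% in S5A, 17.3% and 17.6% in S7A, 15.8% and 13% in T4V, and 2.24% and 2.86% in WT. They hold for this and the next lists. Of 11 homeobox genes of the TALE class (the PBX, MEIS, PKNOX and TGIF genes), 8 fell in Degron, 8 in S2A, 8 in S7A, 7 in S5A, 6 in Y1F, 3 in T4V and 1 in WT, and 0 rose in any line. By the authors' factors 11 fell in Degron, Y1F, S5A and S7A, 10 in S2A, 6 in T4V and 0 in WT, and again 0 rose; the shares of all genes falling under these factors, 1.9% in WT, 33.7% in T4V and 43.9% to 62.5% in the others, hold for this and the next lists. The median change of this list was −0.68 in S5A and −0.64 in Degron. PBX2, a DNA-binding partner of HOX proteins, fell in all 7 lines, from −0.40 ± 0.11 in WT (161 to 123 CPM) to −1.70 ± 0.11 in S5A (145 to 44.6 CPM), but its WT call was lost without any 1 of the 4 WT libraries (adjusted p 0.11 to 0.33). PKNOX2 and TGIF2 fell in the 6 lines other than WT, and reached −1.99 ± 0.15 and −1.28 ± 0.09 in S5A. Against Mock, 8 of the 11 were higher for the mean of the 7 lines and 3 lower (36.5% and 32.9% of all genes). MEIS1 stood at 24.4 CPM against 4.01 and TGIF2 at 75.7 against 6.99, TGIF1 at 12.2 against 175, and PKNOX2 at 26.2 against 0.

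Of 31 Polycomb genes, 18 fell and 1 rose in Degron, 16 and 1 in S5A, 15 and 1 in Y1F, 15 and 4 in S2A, 13 and 2 in S7A, 10 and 2 in T4V, and 2 and 0 in WT. Without 1 library or another the fallen numbered 8 to 13 in S7A, 10 or 11 in S5A, 10 to 13 in S2A and 12 to 15 in Degron. By the authors' factors 17 (T4V, 33.7% of all genes) to 30 (Y1F, 60%) fell in the lines other than WT, and 1 rose, in S2A. PCGF6 and RBBP7, members of Polycomb complexes, fell in all 7 lines, by 0.58 to 1.43 and by 0.33 to 0.78. The PCGF6 call in WT was lost without untreated library 1 (adjusted p = 0.11), untreated library 2 (0.30) or treated library 2 (0.37), and in T4V without untreated library 2 (0.15) or treated library 2 (0.088), where RBBP7 was lost as well (0.072). RING1, a ubiquitin ligase of the complex that silences HOX clusters, fell in 6, by up to 1.30 ± 0.25 in T4V, and was not called in WT (−0.01 ± 0.24, adjusted p = 1.0). Its S7A call was lost without untreated library 1 or 2 or treated library 1 (adjusted p 0.13 to 0.29), and its Degron call without untreated library 1 (0.19) or treated library 1 (0.076). Against Mock, 16 of the 31 were higher and 6 lower (36.5% and 32.9% of all genes). Under mitochondrial scaling 26 were higher and 3 lower (60.1% and 17.4%). JARID2 stood at 112 CPM against 32.7 and PCGF5 at 26.7 against 95.7. Of 19 Trithorax and MLL genes, 9 fell and 2 rose in Degron, 8 and 5 in Y1F, 6 and 3 in S5A, 3 and 2 in S7A, 1 and 2 in T4V, 1 and 0 in S2A, and 0 and 0 in WT. Among all genes 2.24% (WT) to 26.4% (S5A) fell and 2.86% (WT) to 23.7% (S5A) rose. Under the authors' factors 6 of the 19 (T4V, where 33.7% of all genes fell) to 18 (Degron, 60.8%) fell in the lines other than WT and 0 rose. Without 1 library or another the fallen numbered 4 to 9 in Degron, 3 to 7 in Y1F and 3 or 4 in S5A. HCFC1, a partner of MLL enzymes, fell by 1.36 ± 0.17 in S5A and 1.14 ± 0.17 in Degron.

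Of 16 tested genes for retinoic acid and other upstream regulators, 10 fell and 2 rose in S5A, 8 and 1 in Degron, 8 and 1 in Y1F, 8 and 2 in S2A, 6 and 2 in T4V, 6 and 1 in S7A, and 3 and 0 in WT. The 3 in WT became 0 to 2 without 1 library or another, and the 6 in T4V and S7A 4 to 7. Under the authors' factors 8 (T4V, 33.7% of all genes) to 16 (Degron, 60.8%) fell in the lines other than WT, 1 in WT, and 1 rose in each of Y1F, S2A and T4V. CYP26A1, the enzyme that breaks down retinoic acid, fell in all 7 lines, from −0.96 ± 0.27 in WT to −2.75 ± 0.30 in S5A (11.3 to 1.69 CPM); its WT call was lost without untreated library 1 (adjusted p = 0.23), untreated library 2 (0.19) or treated library 1 (0.21), and its T4V call without untreated library 1 (0.085). CTCF, which separates domains of chromatin within HOX clusters, also fell in all 7, from −0.24 ± 0.08 in S2A to −1.52 ± 0.08 in Degron (123 to 42.7 CPM), but its S2A call was lost without any 1 of the 4 libraries (adjusted p 0.09 to 0.13) and its WT call without untreated library 1 (0.093), untreated library 2 (0.12) or treated library 2 (0.12). CDX2, which activates posterior HOX genes, fell in 6 lines and was not called in WT (−0.26 ± 0.15, adjusted p = 0.37), and its S7A call was lost without untreated library 2 (0.13) or treated library 1 (0.12). Against Mock, 8 of the 16 were higher and 7 lower for the mean of the 7 lines, beside 36.5% and 32.9% of all genes. The enzymes that make retinoic acid differed in opposite directions: ALDH1A1, which is also in the A549 marker list, stood at 7154 CPM in Mock and 0.948 in the lines, and ALDH1A2 at 0.147 in Mock and 143 in the lines.

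Noncoding genes of the HOX clusters overlap the coding ones, and since no source used here gives the strand setting of the counts, reads of antisense pairs cannot be told apart. Exons of 18 HOX genes overlap another gene on the same strand, such as HOXC4 with HOXC6, HOXD10 with HOXD11, HOXB3 with HOXB4 and HOXB6, and HOXA9 with MIR196B. Exons of 19 overlap a gene on the opposite strand, such as HOXB2 with HOXB-AS1 and HOXA11 with HOXA11-AS, and 25 have either. HOXA5, HOXB7, HOXB8, HOXB9, HOXB13, HOXC11 and HOXD13 have neither. Of 20 noncoding genes tested, 11 fell and 3 rose in S5A, 9 and 1 in S7A, 8 and 1 in Degron, 7 and 3 in Y1F, 6 and 0 in WT, 5 and 3 in S2A, and 5 and 1 in T4V. The 6 in WT became 1 or 2 without any 1 WT library. With the authors' factors 4 (WT) to 17 (Degron) fell and 0 rose. HOTAIRM1, a noncoding gene of cluster A, fell in all 7 lines, from −0.56 ± 0.11 in T4V to −1.82 ± 0.11 in Degron (35.5 to 10.0 CPM). HOXD-AS2 and HAGLR, both in cluster D, fell in all 7 as well, by 0.74 to 1.91 and by 0.43 to 1.55; the WT call of HAGLR was lost without any 1 WT library (adjusted p 0.077 to 0.29), and that of HOXD-AS2 without untreated library 1 (0.055) or treated library 2 (0.074). Against Mock, 17 of the 20 were higher and 1 lower (36.5% and 32.9% of all genes). HOTAIR, transcribed within cluster C, stood at 0.346 CPM in Mock, at 4.19 in the line where it was lowest and at 20.2 where it was highest.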

How the data were processed

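The labels' protocols give TRIzol extraction, 10% fly S2 cells as spike-in, VAHTS V6 libraries and paired reads of 150 bases. The submitters' processing notes name Trim Galore 0.6.2, STAR 2.7.3a, featureCounts 2.0.1, DESeq2 1.24.0 and the builds hg38 and dm6; the annotation and strand setting used are not given in the sources here. The authors deposited raw counts per gene and TPM (sums of 998366 to 999347 per library) in 8 tables, and per line a table whose base mean is a normalised signal, with a log2 fold change and p-values. These tables hold 0 fly genes.

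Counts of 61578 genes in 30 libraries were fitted in 1 model of 15 groups with edgeR 4.0.16 (quasi-likelihood, robust, TMM; R 4.3.3, limma 3.58.1), 15 residual degrees of freedom and a common dispersion of 0.0121. The low-count filter (minimum count 10, minimum total 15) kept 19982 genes and left out 41596. Benjamini-Hochberg adjustment ran over all tested genes in each of 22 comparisons. Each line was compared treated with untreated, untreated with Mock, and in its change with the WT line's change, and the 7 untreated lines were compared with each other. Levels are CPM on TMM-scaled totals, and TPM between genes. On simulated counts for the WT comparison (19982 genes), 71 of 100 genes changed 2-fold and 95 of 100 changed 4-fold were recovered, with 10 unchanged genes called. Unchanged genes had the same mean in all groups there, the spread was set by the mean alone, and no scarce gene was changed. Single libraries were not disturbed, so these rates need not hold for the real WT comparison.

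The alternatives tried were size factors and the Wald test of DESeq2 1.42.0, totals of 13 mitochondrial mRNAs, the authors' factors solved from their base means (whether fly reads entered them is not stated), other filters, a replicate block, only the libraries compared and leaving out each library; leaving out the 2 Mock libraries was added after seeing the data. The HOX members and all gene lists were chosen with earlier results of these data known. The text names, per comparison, up to 10 HOX genes called in each direction by size (3 for differences in change), the 3 highest per cluster, and up to 4 genes per list called in most lines and 4 by difference from Mock; other names were chosen after their values were seen. Columns of per-sample values in no sample numbered 0. The values of 1 HOX member are not reported here singly or drawn, though counts over the members include it.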

Additional observations from a re-analysis of the deposited data

Results flagged for a closer look

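These HOX results differed between the WT line and another line in a direct test of the change against the WT line's change (edgeR quasi-likelihood, adjusted over all genes tested). All share the 4 WT libraries, so they do not support each other. In Degron 22 genes differed, led by HOXB2 at −2.12 (adjusted p = 1.4e-05), HOXA5 at −1.67 (2.7e-07) and HOXA6 at −1.62 (0.0001) on the log2 scale. In S5A 24 differed, led by HOXC11 at −1.94 (5.3e-06), HOXC12 at −1.77 (0.00042) and HOXC4 at −1.46 (6.5e-06).

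In Y1F 12 differed, led by HOXB2 at −1.63 (adjusted p = 0.00036), HOXD9 at −1.19 (0.0021) and HOXA2 at −1.12 (0.041). The HOXA2 call was lost without any 1 of the 8 libraries (adjusted p 0.069 to 0.13), under mitochondrial scaling (0.052) and in DESeq2's Wald test (0.11). In S2A 4 differed: HOXA4 at 1.14 (adjusted p = 0.036), HOXA7 at 0.92 (0.0094), HOXB7 at 0.66 (0.024) and HOXC11 at −1.04 (0.017). HOXA4 lost its call without each of its 8 libraries in turn (adjusted p 0.059 to 0.18). HOXA7 lost it without untreated WT library 1 (0.08), untreated S2A library 2 (0.054) or treated S2A library 1 (0.072). HOXB7 lost it without untreated WT library 2 (0.11) or any S2A library (0.051 to 0.09). HOXC11 lost it without either untreated WT library (0.053 and 0.053), treated WT library 2 (0.056), untreated S2A library 2 (0.11) or treated S2A library 2 (0.14). In T4V 2 differed, HOXA7 at 0.77 (adjusted p = 0.049) and HOXA9 at 0.70 (0.023). HOXA7 lost its call without any library other than treated WT library 2 (adjusted p 0.072 to 0.2). HOXA9 lost it without untreated WT library 2, treated WT library 2, untreated T4V library 1 or either treated T4V library (0.077 to 0.087). The upward differences of S2A and T4V were not called under the authors' factors or mitochondrial scaling.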

How the results depend on the processing

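Of 200 named HOX results, alternatives kept direction and call in 2436 cases, lost the call in 228 and turned the direction in 16; for 33, leaving out 1 library was enough to end the call. Except where stated, the cause was not tested. All 16 turns were upward changes under TMM. Under mitochondrial scaling they became, in S2A, HOXA7 −0.076, HOXC6 −0.11 and HOXC10 −0.13. In T4V they became HOXB13 −0.0011, HOXB4 −0.0336, HOXA11 −0.12, HOXC6 −0.20 and HOXC10 −0.29, and HOXB13 was −0.15 in S5A. Under the authors' factors S2A gave HOXA7 −0.11, HOXC6 −0.13 and HOXC10 −0.15, T4V gave HOXC6 −0.067 and HOXC10 −0.15, and HOXB13 was −0.37 in S5A and −0.17 in S7A.

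Counts of HOX genes moved as follows. The authors' factors gave 0 risen in Degron, Y1F, S2A, T4V, S5A and S7A and 21 fallen in T4V (33.7% of all genes). Of changes against WT they gave 26 lower in Y1F (34.2% of all genes), 4 in S2A (6.75%) and 26 in S7A (21.5%), and 0 higher in S2A and T4V. Mitochondrial scaling gave 0 risen in S2A, T4V, S5A and S7A and 25 fallen in T4V (48.3% of all genes). It gave 0 below Mock in WT, T4V, S5A and S7A, and against the WT change 0 higher in S2A and T4V, 3 lower in S2A (10.2%) and 4 in T4V (10.6%). Most of the next counts have the count over all genes in brackets, of 19982 tested unless stated. With only the libraries compared, which leaves fewer residual degrees of freedom, 0 rose (78) and 0 fell (16) in WT and 2 rose in Y1F (4570). Under that setting 0 rose (1351) and 4 fell (1775) in T4V, and 13 fell in S7A (1482). Against the WT change that gave 12 lower in Degron (562), 3 in Y1F (345) and 0 in S2A (294), and higher 1 in S2A (220) and 0 in T4V (0). A mean CPM of at least 5, which tests fewer genes (11653), gave 5 fallen in WT (283) and 5 in T4V (2280). Against the WT change it gave 5 higher in S2A (824). No filter, with 45744 genes tested, gave 6 fallen in WT (364), 5 risen in S2A (3432) and 1 in T4V (2371). Against the WT change it gave 7 lower in Y1F (1281), 2 in S2A (673) and 1 higher in T4V (215). DESeq2 size factors gave 2 risen in Y1F (4923), 2 below Mock for the 7-line mean (7058) and 1 higher than the WT change in T4V (261). DESeq2's Wald test gave 5 higher than the WT change in S2A (801 of 14558), 4 in T4V (511 of 13396) and 1 lower in S7A (145 of 14945). Without the 2 Mock libraries, chosen after seeing the data, 3 rose in T4V and 1 was higher than the WT change there.

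Same-numbered libraries deviated together in S7A (correlation 0.44) and not in the other 6 lines (−0.54 to 0.06), so the numbers were not taken as pairs. A replicate block gave 5 fallen in WT (184 of all 19982 genes), 5 risen in S2A (2827) and 3 in T4V (2118). Against the WT change it gave 5 lower in Y1F (772), 0 in S2A (417) and 0 higher in T4V (22).

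Leaving out each library in turn, fallen counts ranged over 26 to 30 in Degron, 26 to 27 in S5A, 18 to 25 in S7A, 20 to 23 in Y1F, 11 to 14 in S2A, 5 to 7 in T4V and 3 to 5 in WT. Risen counts ranged over 3 to 5 in S2A, 0 to 5 in T4V, 0 to 2 in S5A and 0 to 2 in S7A. The S5A value was 0 without treated library 2 and 2 without untreated library 2; the S7A value was 0 without treated library 2 and 2 without treated library 1. Counts lower than the WT change ranged over 17 to 24 in Degron, 17 to 26 in S5A, 4 to 9 in Y1F, 0 to 2 in S2A, 0 to 1 in T4V and 0 to 2 in S7A. Counts higher ranged over 0 to 3 in S2A and 0 to 1 in T4V. Comparisons with Mock stayed at 29 to 34 higher. Library totals of 10866089 to 17912802 counts limit the scarce members HOXC5, HOXD1 and HOXD12, which reached 2.29 CPM at most.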

Other observations

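Other homeobox genes and genes beside the HOX clusters formed a list of 25 with 22 tested. Under TMM scaling 9 fell and 0 rose in Degron, 8 and 3 in S5A, 6 and 2 in S7A, 4 and 4 in Y1F, 4 and 2 in S2A, 4 and 1 in T4V, and 1 and 0 in WT. Among all genes 2.24% (WT) to 26.4% (S5A) fell and 2.86% (WT) to 23.7% (S5A) rose. Without 1 library or another the fallen numbered 5 to 7 in Degron, 4 to 6 in S5A, 4 to 6 in S7A, 3 to 4 in Y1F, 2 to 4 in S2A, 3 in T4V and 0 or 1 in WT. Against Mock 13 were higher and 2 lower for the mean of the 7 lines (36.5% and 32.9% of all genes). SMUG1, a DNA repair glycosylase beside cluster C, fell in all 7 lines, from −0.49 ± 0.14 in WT to −1.95 ± 0.15 in S5A, where its level went from 50.8 to 13.2 CPM. Its WT call was lost without untreated WT library 1 (adjusted p = 0.35), untreated library 2 (0.17) or treated library 1 (0.31). EN2, a homeobox gene of the midbrain and hindbrain, fell in 6 lines, from −0.59 ± 0.19 in S7A to −1.43 ± 0.19 in S5A, and stood at −0.19 ± 0.18 in WT (adjusted p = 0.63). Leaving out 1 library or another ended its calls in S7A (untreated library 2, adjusted p = 0.18; treated library 1, 0.20), S2A (untreated library 1, 0.10; untreated library 2, 0.081; treated library 2, 0.18), T4V (untreated library 1, 0.16) and Y1F (untreated library 1, 0.053). PDX1, a homeobox gene of the pancreas, stood at 3.82 CPM in the lines and 0.199 in Mock, and GBX1 at 4.94 and 0.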
